A study of Rattus norvegicus with 54 samples.

Results

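The enzymes that oxidise ethanol and use its products were followed through the nucleus accumbens of Long Evans rats. The set held 10 genes, namely Adh1, Adh5, Adhfe1, Cat, Cyp2e1, Aldh2, Aldh1b1, Aldh1a1, Acss1 and Acss2, of 45785 named genes in the count table. They were picked by name, 9 by the gene name itself and 1 by a synonym, since rat Adh1 stands in the table as Adh1c (gene ID 24172). All 10 passed the filter on low counts in every fit.

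Ethanol is oxidised to acetaldehyde by alcohol dehydrogenases, by the cytochrome P450 enzyme CYP2E1 and by catalase, which uses hydrogen peroxide in peroxisomes. Aldehyde dehydrogenases turn acetaldehyde into acetate, and acyl-CoA synthetases join acetate to coenzyme A for energy metabolism, lipid synthesis and histone acetylation. The liver does most of this work in the body, whereas in brain catalase and CYP2E1 are regarded as the main ethanol oxidisers, and acetate from blood is a fuel taken up by brain cells.

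Bulk RNA of 54 libraries was sequenced in 8 groups that combine sex, age, prenatal condition and adolescent condition. Prenatal ethanol (PAE) followed by adolescent alcohol (AAE) was sampled in adulthood at postnatal day 90 (P90), without a challenge dose, in 5 female and 6 male libraries, against 8 female and 6 male P90 libraries of a prenatal free-choice liquid diet followed by water (FCL-VEH). Prenatal ethanol followed by water (PAE-VEH) was sampled at P42, 24 h after the last adolescent treatment, in 4 female and 9 male libraries, against 7 female and 9 male FCL-VEH libraries of P42. No group had the adolescent alcohol without the prenatal ethanol, so at P90 the 2 exposures cannot be told apart. The labels name no litters, so p-values measure only the spread between these libraries, and tissue is whole dissected accumbens, in which fewer cells of a type and less RNA per cell cannot be told apart.

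Library totals lay between 59.1 M and 103.8 M counts, with a median of 72.5 M. As a check of the tissue label, 13 markers of medium spiny neurons, the principal neurons of the accumbens, summed to 2793 to 10080 CPM in a library. CPM are counts scaled to a common library total. Of 6 midbrain dopamine genes, Slc6a3, Pitx3, En1 and Th averaged 0.062, 0.047, 0.166 and 1.22 CPM. Ddc and Slc18a2 averaged 5.99 and 22.9 CPM. Markers of neighbouring tissue were found too, with Slc17a7 of cortex at 4.15 to 1190 CPM and Zic1 of septum at 11.7 to 229 CPM. Xist and Y-linked genes went against the sex label in 3 libraries, namely FCL-VEH P42 female replicate 5, FCL-VEH P42 male replicate 8 and PAE-VEH P42 male replicate 5. PAE-VEH P42 male replicate 6 stood apart in its fibroblast and cortical markers, and FCL-VEH P90 male replicate 6 was among the libraries highest in choroid plexus markers. Among the males whose markers matched their label, FCL-VEH P90 replicate 6 also had the highest Xist, 53.3 CPM, and the lowest Y-linked Kdm5d, 28.6 CPM. Its Y-linked genes summed to 186.3 CPM, above Xist, so it was not counted among the 3. The reason for its Xist level was not tested. These libraries were kept, and the calls that were lost without them are given with both values.

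The accumbens held much more transcript of Aldh2, Adh5 and Cat than of Adh1c and Cyp2e1. Of the enzymes regarded as the main ethanol oxidisers in brain, catalase was therefore high and CYP2E1 low in transcript. On the authors' FPKM scale, which corrects for transcript length and depth and so allows genes to be compared, Aldh2 averaged 49.4 FPKM (coefficient of variation 19.8% over 54 libraries). Adh5 averaged 40.2 FPKM, Cat 28.8, Acss2 15.9, Acss1 15.5, Adhfe1 12.7, Aldh1b1 9.02 and Aldh1a1 3.25 FPKM. Adh1c averaged 0.179 FPKM and Cyp2e1 0.0829 FPKM. Aldh2 was thus above 97.4% of the named genes, and Cyp2e1 above 52.9%.

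The order of these FPKM levels was fixed at some steps and loose at others. Cat lay above Acss2, Aldh1b1 above Aldh1a1, and Aldh1a1 above Adh1c in all 54 libraries, and Adh5 lay above Cat in 53. Aldh2 exceeded Adh5 in 46 libraries, Acss1 exceeded Adhfe1 in 46, and Adhfe1 exceeded Aldh1b1 in 52. Acss2 and Acss1 did not separate, with Acss2 ahead in 29 of 54 libraries, and Adh1c was ahead of Cyp2e1 in 34. Adh1c and Cyp2e1 rested on few reads. Adh1c had a median of 17 counts a library, with 272 at most and none in 2 libraries, and Cyp2e1 had a median of 8 counts, with 38 at most and none in 3 libraries. A library in which either had 0 counts still allows up to 3.

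**Figure D1:**
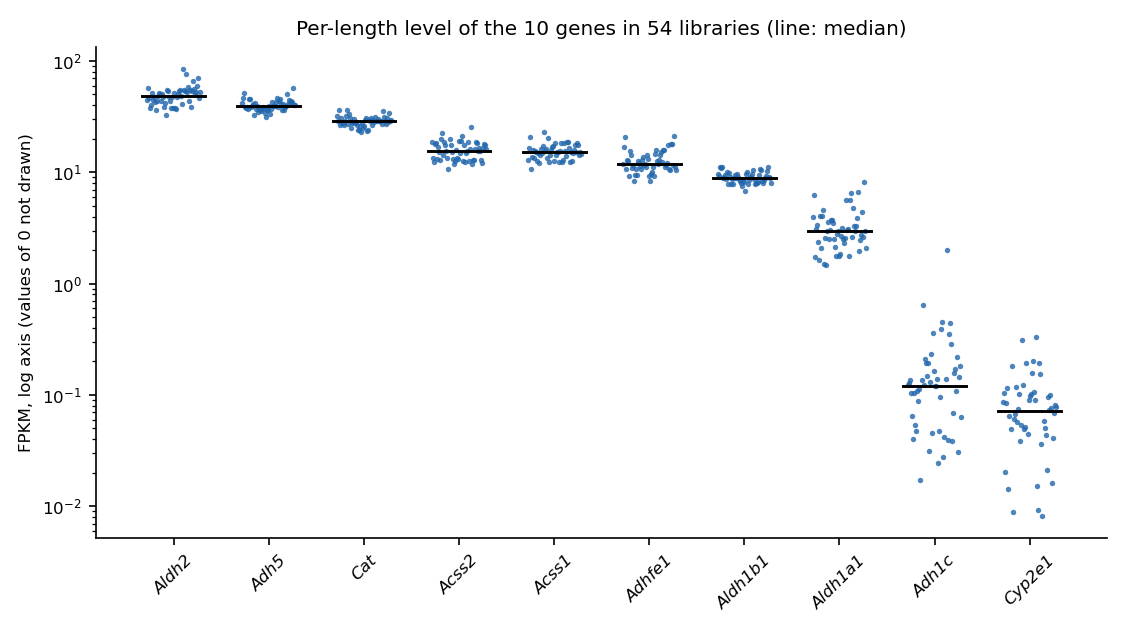
FPKM of the 10 genes on a log axis, 1 point per library (54 libraries, values of 0 left out), with the median as a line. Aldh2, Adh5 and Cat are at the top, and Adh1c and Cyp2e1 lie below all libraries of the other 8 genes except for 1 Adh1c library at 2.02 FPKM.

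The stretches before the transcription start of an abundant and of the 2 scarce members show how far their promoters differ in letters. These are RefSeq sequences of the rat assembly GRCr8, which held 7 of the 10 genes and not Aldh2, Acss1 and Adhfe1, and each covers the 250 bases before the start, 5′ to 3′ on the gene's own strand. Capitals mark matches, on either strand, to the CCAAT box (CCAAT), the GC box (GGGCGG) and the TATA box (TATAAA). Adh5 at chr2:229648307-229648556 (+), Adh1c at chr2:229470453-229470702 (+) and Cyp2e1 at chr1:205269717-205269966 (+) read as follows.
Adh5: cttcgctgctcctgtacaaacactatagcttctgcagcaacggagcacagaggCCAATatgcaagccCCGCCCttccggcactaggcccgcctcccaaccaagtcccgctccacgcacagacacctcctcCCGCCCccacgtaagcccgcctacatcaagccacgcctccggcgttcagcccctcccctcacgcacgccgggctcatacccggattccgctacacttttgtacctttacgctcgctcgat
Adh1c: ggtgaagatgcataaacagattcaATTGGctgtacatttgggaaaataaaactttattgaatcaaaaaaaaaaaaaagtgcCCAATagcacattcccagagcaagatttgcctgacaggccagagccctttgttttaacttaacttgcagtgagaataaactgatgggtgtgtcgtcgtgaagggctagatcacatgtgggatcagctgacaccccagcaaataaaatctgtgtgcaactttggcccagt
Cyp2e1: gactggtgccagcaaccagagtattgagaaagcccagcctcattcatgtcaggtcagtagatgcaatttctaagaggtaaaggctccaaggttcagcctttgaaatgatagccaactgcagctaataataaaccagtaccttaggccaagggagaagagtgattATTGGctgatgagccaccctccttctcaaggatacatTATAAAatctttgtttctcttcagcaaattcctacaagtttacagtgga
The Adh5 stretch held 21 CpG dinucleotides and 62.4% G or C, more CpG than 84.9% of the 33469 promoters in the table, whose median was 5 CpG and 51.2% G or C. It had 1 CCAAT box and 2 GC boxes, with the GC box present in 30.5% of all promoters of this length. Cyp2e1 had 0 CpG, 42.8% G or C, and the TATA box found in 12.9% of promoters, 49 bases before the start. Adh1c had 2 CpG, 41.2% G or C and 2 CCAAT boxes, a motif held by 34% of promoters. Cat had 4 CCAAT boxes and 10 CpG, and Acss2 had 4 GC boxes and 12 CpG, although its tabled start lay 579 bases inside the gene's span. A match is a description of the letters and not a site of binding.

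Among the first-step enzymes, Cat had group means that lay close together. Cat, catalase, lies on chromosome 3 (110297340 to 110329526, minus strand). Its 8 group means were between 67.2 CPM in PAE-VEH P42 females and 77.1 CPM in FCL-VEH P90 males, on CPM with library sizes scaled by TMM. That is the scale of all CPM values here except those of Xist and Y-linked genes, which use plain library totals. No comparison called it. Across ages the difference in FCL-VEH libraries of both sexes together was 0.02 (log2, 95% interval -0.10 to 0.14), which bounds a change of either sign to a small size in those libraries. Between PAE-AAE P90 and PAE-VEH P42 males it was -0.17 (adjusted p = 0.252, edgeR). The exposure difference of males at P90 minus that at P42 was -0.22 (95% interval -0.43 to -0.01, adjusted p = 0.286, edgeR).

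Adh5, class III alcohol dehydrogenase, oxidises the glutathione adduct of formaldehyde and takes ethanol only poorly. It lies on chromosome 2 (229648557 to 229660964), in the same cluster as Adh1c (229470703 to 229482291), which encodes the class I enzyme of liver. Group means of Adh5 ran from 51.3 CPM in FCL-VEH P42 males to 61.9 CPM in FCL-VEH P90 males. Those of Adh1c ran from 0.132 CPM in PAE-VEH P42 females to 0.619 ± 1.19 CPM (SD, n = 9) in PAE-VEH P42 males, where a single library, replicate 6, stood at 3.71 CPM. Cyp2e1 group means were 0.0729 to 0.216 CPM, with SDs of 0.0599 to 0.228 CPM. Adh1c and Cyp2e1 passed no test in any comparison, at counts that could show only very large changes.

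**Figure D2:**
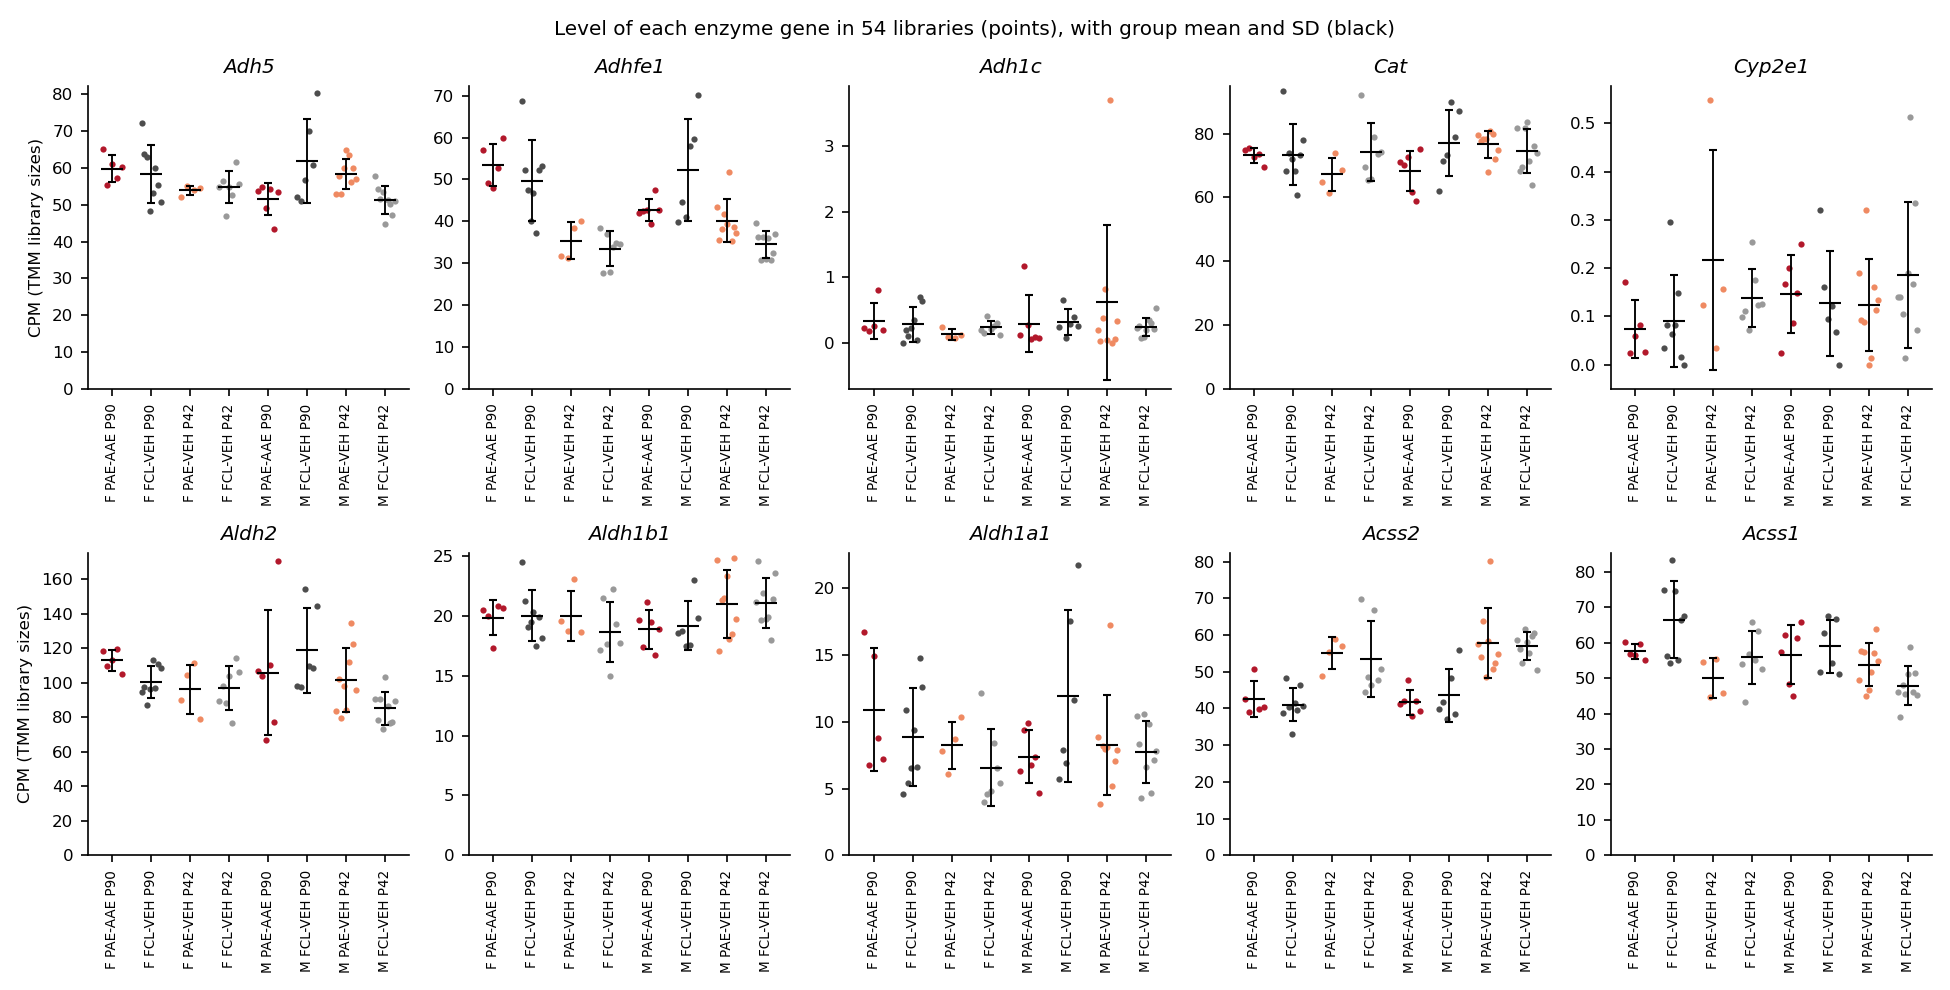
CPM of each gene in every library (points) with the group mean and SD (black), for females (F) and males (M). Panels of Adh1c and Cyp2e1 run below 0 to hold the SD bars. Acss2 points at P90 lie below most P42 points in both sexes, and those of Adhfe1 lie above most P42 points. The Adhfe1 points of PAE-AAE males all lie within the range of PAE-VEH P42 males.

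Some members of the set changed between P42 and P90. P42 libraries were taken 24 h after the last adolescent treatment, so age and time since that treatment cannot be told apart here. Below, age stands for P90 against P42. In FCL-VEH males, P90 libraries against P42 libraries gave 3 of 10 members past an adjusted p of 0.05 (edgeR quasi-likelihood test with Benjamini-Hochberg adjustment over 24065 genes), against 2.53% of all genes. Adhfe1 and Aldh2 rose and Acss2 fell. In FCL-VEH females 1 of 10 passed, Adhfe1, against 0.42% of all genes. With the sexes averaged, a comparison added after the data were seen, 4 of 10 passed, against 7.18% of all genes: Adhfe1, Aldh2 and Acss1 rose and Acss2 fell. The median log2 change over the 10 members in males was 0.29, beside 0.00 over all genes tested, and in females it was 0.10, again beside 0.00.

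Adhfe1 lies on chromosome 5 (14488784 to 14515405, minus strand) and encodes an iron-dependent mitochondrial enzyme that passes electrons from gamma-hydroxybutyrate to 2-oxoglutarate and so makes 2-hydroxyglutarate. In FCL-VEH males its lowest, median and highest libraries were 39.9, 51.3 and 70.2 CPM at P90, against 30.8, 36 and 39.5 CPM at P42. Those groups did not overlap, by a narrow margin. For this and later statements of no overlap, the share of all genes that separate so was not counted. The rise was 0.60 ± 0.118 on the log2 scale (SE, adjusted p = 0.00596, edgeR). In FCL-VEH females the libraries were 37.1, 49.8 and 68.7 CPM at P90, against 27.7, 34.6 and 38.4 CPM at P42. Here 8 of 8 adult libraries were above the P42 median, and 1 or more of them lay within the P42 range. The rise was 0.57 ± 0.118 (adjusted p = 0.0169), and the difference between the sexes, female minus male, was -0.03 (95% interval -0.35 to 0.30). The female call was lost without FCL-VEH P42 replicate 2 (adjusted p = 0.0519) and without the libraries that went against their sex label (0.58, adjusted p = 0.0681). It was also lost with scores of choroid plexus, ependyma and cortical neurons as covariates (0.38, adjusted p = 0.0528).

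Acss2, on chromosome 3 (164464124 to 164507607), makes acetyl-CoA from acetate in cytosol and nucleus. In FCL-VEH males it had 37.1, 40.7 and 55.8 CPM (lowest, median, highest) at P90, against 50.5, 58.2 and 61.6 CPM at P42. All 6 adult libraries were below the P42 median, and 1 or more reached into the P42 range. It fell by 0.39 on the log2 scale (SE 0.0971, adjusted p = 0.0289, edgeR). In FCL-VEH females it had 33.2, 40.6 and 48.2 CPM at P90, against 44.5, 48.7 and 69.96 CPM at P42. The female difference was -0.38 ± 0.0943 with an adjusted p of 0.0617, so it did not pass alone, although 8 of 8 adult libraries were below the P42 median. The difference between the sexes, female minus male, was 0.01 (95% interval -0.26 to 0.27). The average over the sexes was -0.38 ± 0.0677 (adjusted p = 0.000926). The male call was lost when any of 6 single libraries was left out: P42 replicate 7 (adjusted p = 0.0538) and P90 replicates 1 (0.0606), 2 (0.0507), 3 (0.0976), 4 (0.0504) and 5 (0.0719). It was also lost with no filter on low counts (adjusted p = 0.0519) and without the libraries that went against their sex label (-0.36, adjusted p = 0.0608). The female difference of Acss2 passed with DESeq2 (adjusted p = 0.0163), in 1 fit of all 54 libraries (0.033), and with scores of choroid plexus, ependyma and cortical neurons as covariates (-0.50, adjusted p = 0.00515).

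Acss1, on chromosome 3 (159910809 to 159960748, minus strand), makes acetyl-CoA from acetate in the mitochondrial matrix and moved opposite to Acss2. In FCL-VEH males it averaged 59 ± 7.5 CPM at P90 (SD, n = 6) and 47.9 ± 5.52 CPM at P42 (n = 9). In FCL-VEH females it averaged 66.6 ± 10.8 CPM at P90 (n = 8) and 55.9 ± 7.45 CPM at P42 (n = 7). Differences were 0.30 in males (adjusted p = 0.101, edgeR) and 0.25 in females (adjusted p = 0.233), and the average over the sexes rose by 0.28 ± 0.071 (adjusted p = 0.0162). With astrocyte and myelin scores as covariates this call was lost (0.18, adjusted p = 0.682), and Acss1 correlated at 0.512 with the astrocyte score over the 54 libraries (0.30 within groups). Without P90 replicate 1 the male difference passed (adjusted p = 0.0483). The FPKM ratio of Acss1 to Acss2 was higher on average at P90 in every pair of groups. It was 1.18 ± 0.13 in PAE-AAE P90 females and 0.792 ± 0.128 in PAE-VEH P42 females, and 1.43 ± 0.371 in FCL-VEH P90 females and 0.929 ± 0.212 in FCL-VEH P42 females. In males it was 1.18 ± 0.204 in PAE-AAE P90 libraries and 0.821 ± 0.152 in PAE-VEH P42 libraries, and 1.21 ± 0.304 in FCL-VEH P90 libraries and 0.73 ± 0.0977 in FCL-VEH P42 libraries. The mitochondrial form was therefore the more abundant one on average in each P90 group, and the nucleocytosolic form in each P42 group, as a description with no test of its own.

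Of the aldehyde dehydrogenases, Aldh2 on chromosome 12 (40610244 to 40643220), the mitochondrial enzyme that clears most acetaldehyde, changed with age in males. Its FCL-VEH males had 97.6, 109.1 and 154.6 CPM (lowest, median, highest) at P90, against 73.3, 86.6 and 103.5 CPM at P42. All 6 adult libraries lay above the P42 median, with overlap at the edge, and the rise was 0.48 ± 0.0998 (adjusted p = 0.00875, edgeR). FCL-VEH females had 86.9, 97.3 and 113.4 CPM at P90, against 76.7, 98.3 and 114.5 CPM at P42, a difference of 0.06 ± 0.0989 (adjusted p = 0.811). The difference between the sexes was -0.43 (female minus male, 95% interval -0.70 to -0.15, edgeR adjusted p = 0.47) and did not pass, where 0 of 24065 genes passed and 8.5% had an unadjusted p under 0.05. Without FCL-VEH P90 male replicate 6, the male rise of Aldh2 was 0.42 (adjusted p = 0.0561, edgeR). That library had the highest choroid plexus marker score of its group, 3.055, but replicates 4 and 3 also stood at 2.285 and 1.632. Replicate 6 was also the male library with the high Xist level named above.

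Aldh1b1, a second mitochondrial aldehyde dehydrogenase on chromosome 5 (64859000 to 64864008), and Aldh1a1, a cytosolic enzyme that also makes retinoic acid, on chromosome 1 (227426939 to 227579497), passed no age test. Group means of Aldh1b1 were 18.7 to 21.1 CPM. Aldh1a1 was the most variable of the members with more than 1 CPM, with a coefficient of variation of 43.9% in FPKM. In FCL-VEH males it had 5.73, 9.78 and 21.8 CPM at P90, against 4.29, 7.82 and 10.6 CPM at P42, a difference of 0.62 ± 0.292 (adjusted p = 0.262, edgeR). Adh5 also missed the threshold in FCL-VEH males, with 0.27 ± 0.0882 (adjusted p = 0.0955), and passed when P90 replicate 1 (adjusted p = 0.0387) or 2 (0.0329) was left out, or when all 54 libraries were fitted together (0.0326). Averaged over the sexes it was 0.18 (adjusted p = 0.0701), and it passed in that fit (0.0252) or when P90 female replicate 4 (adjusted p = 0.0358), P42 male replicate 1 (0.048) or P90 male replicate 1 (0.0392) or 2 (0.0307) was left out.

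**Figure D3:**
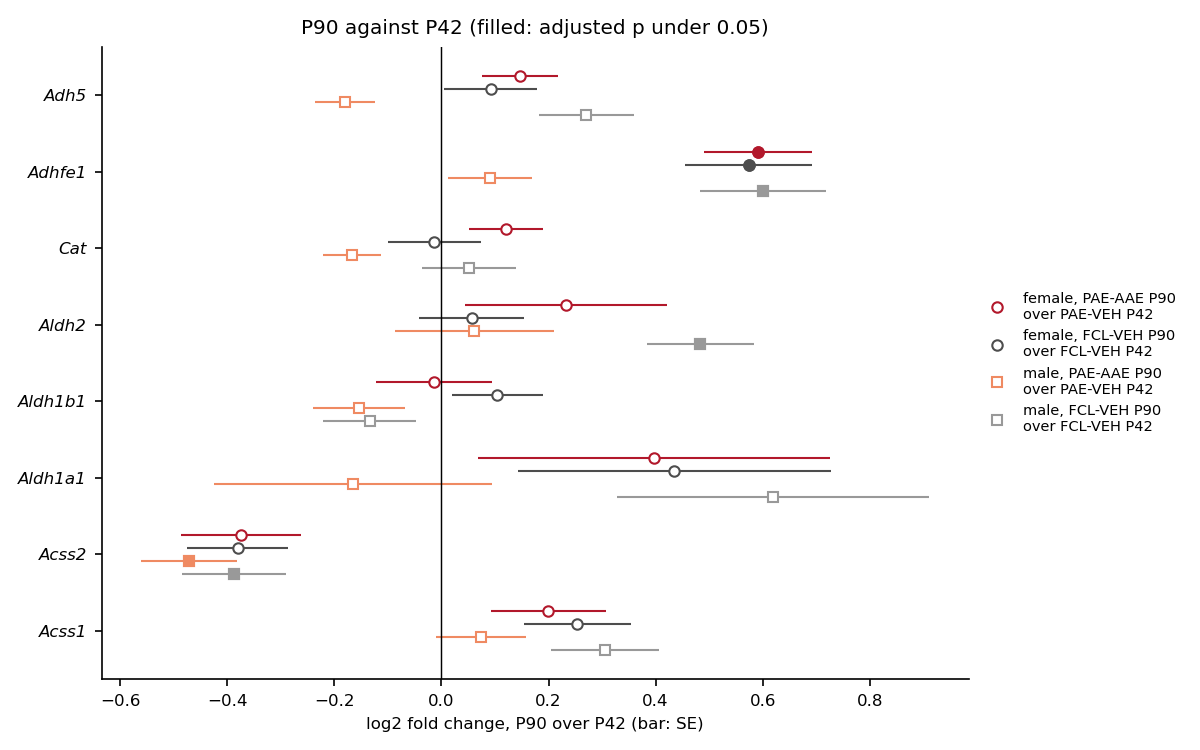
Log2 fold change of P90 over P42 libraries for the 8 members with more than 1 CPM (points) with its SE (bars), in 4 pairs of groups, filled where the adjusted p was under 0.05. Acss2 is between -0.37 and -0.47 in all 4 pairs, and Adhfe1 is between 0.57 and 0.60 in 3 of them and 0.09 in exposed males.

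The 24 ethanol-exposed libraries, which do not enter the FCL-VEH fit, gave the same comparison in other samples, with the limit that in them age and the adolescent alcohol cannot be told apart. This comparison was added after the data were seen. In exposed males 1 of 10 members passed, Acss2, against 0.284% of 24337 genes. In exposed females 1 of 10 passed, Adhfe1, against 2.17%. With the sexes averaged 2 of 10 passed, the same Acss2 and Adhfe1, against 1.16%.

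Acss2 in exposed males had 37.9, 41.6 and 47.8 CPM (lowest, median, highest) in PAE-AAE P90 libraries, against 48.5, 54.9 and 80.2 CPM in PAE-VEH P42 libraries. These groups did not overlap, and Acss2 fell by 0.47 (SE 0.0897, adjusted p = 0.0137, edgeR). The highest PAE-VEH value was replicate 6, and without it the difference was -0.40 (adjusted p = 0.00718). The call was lost without PAE-AAE replicate 4 (adjusted p = 0.0559). In exposed females the libraries had 39.1, 40.0, 40.4, 42.5 and 50.9 CPM in PAE-AAE at P90, against 48.9, 55.4, 57.0 and 58.9 CPM in PAE-VEH at P42. All 5 were below the P42 median, 1 of them inside the P42 range, and the difference was -0.37 ± 0.112 (adjusted p = 0.0816). Without PAE-AAE replicate 3, the library at 50.9 CPM, the adjusted p was 0.0417.

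Adhfe1 in exposed females had 48, 49.3, 52.8, 57.1 and 59.9 CPM in PAE-AAE P90 libraries, against 31.3, 31.7, 38.4 and 40.0 CPM in PAE-VEH P42 libraries. The groups did not overlap, and the rise was 0.59 ± 0.101 (adjusted p = 0.00412, edgeR). In exposed males it had 39.4, 42.5 and 47.5 CPM (lowest, median, highest) in PAE-AAE P90 libraries, against 35.3, 38.6 and 51.7 CPM in PAE-VEH P42 libraries, a difference of 0.09 ± 0.0786 (adjusted p = 0.743). The exposed and the FCL-VEH age differences of males were set against each other in a single fit of all 54 libraries. This is the same test as the difference between the male exposure effects given below, and not a second one. Adhfe1 then differed by -0.51 ± 0.149 (95% interval -0.80 to -0.22), at an unadjusted p of 0.00126 and an adjusted p of 0.09 in edgeR, so the difference did not pass.

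Adhfe1 moved together with markers of astrocytes, and within groups as closely with those of microglia. Over the 54 libraries its Pearson correlation with the score of 11 astrocyte genes was 0.771, and 0.618 after group means were taken out, values that describe libraries sharing tissue composition and depth. With the score of 9 microglia genes it was 0.626 (0.615 within groups), and with the myelin score 0.03 (0.514 within groups). In FCL-VEH males 11 of 11 astrocyte markers were higher at P90 and 2 of them passed, with a median log2 change of 0.17. Their summed level was 7727 to 9947 CPM at P90, against 7363 to 8723 CPM at P42. In FCL-VEH females 8 of 11 were higher and 0 passed, with a median of 0.17. In exposed females 11 of 11 were higher, with a median of 0.26, and in exposed males 3 of 11, with a median of -0.11. Of the 9 microglia markers, 9 were higher at P90 in FCL-VEH males (median 0.33) and 9 in FCL-VEH females (median 0.19), against 3 in exposed males (-0.11) and 5 in exposed females (0.02). No astrocyte marker was at 0 in any library. With the scores of astrocyte and myelin markers as covariates, an alternative added after the data were seen, the Adhfe1 rise in FCL-VEH males was 0.36 ± 0.104 (adjusted p = 0.195), and that in exposed females was 0.44 (adjusted p = 0.248), so both calls were lost. In the same setting Adhfe1 still passed in FCL-VEH females (0.47, adjusted p = 0.0261), over both FCL-VEH sexes (0.41, adjusted p = 0.0125) and over both exposed sexes (0.30, adjusted p = 0.0425).

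Acss2 had a correlation of 0.629 with the score of 11 oligodendrocyte genes (0.573 within groups), -0.18 with the astrocyte score (0.392 within groups) and 0.08 with the microglia score (0.524 within groups). The myelin markers had median age changes of -0.06 in FCL-VEH males, -0.57 in FCL-VEH females, -0.52 in exposed males and -0.27 in exposed females, and none of the 11 passed in any of these. Their summed level in FCL-VEH males was 8364 to 32720 CPM at P90, against 13530 to 19960 CPM at P42. With both scores as covariates Acss2 was at -0.46 in FCL-VEH males (adjusted p = 0.0297, edgeR) and at -0.30 in exposed males (adjusted p = 0.128). The Aldh2 rise in FCL-VEH males was 0.21 (adjusted p = 0.68) in the same fit, and 0.34 (adjusted p = 0.0764) with scores of choroid plexus, ependyma and cortical neurons as covariates. In those males 13 of 13 choroid plexus markers were higher at P90, with a median of 0.99.

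Exposure to ethanol called none of the 10 members at either age. At P42, PAE-VEH against FCL-VEH gave 0 of 10 in males and in females, where 0% of 24741 genes passed in edgeR in either sex. At an unadjusted p under 0.05 there were 4 of 10 members in males, against 8.96% of genes, and 0 of 10 in females, against 11.3%. At P90, PAE-AAE against FCL-VEH again gave 0 of 10 in both sexes and 0% of 24018 genes. At an unadjusted p under 0.05 there were 3 of 10 members in males, against 8.74%, and 0 of 10 in females, against 4.23%. DESeq2 and limma voom called 0 members in each of these 4 comparisons as well. Averaged over the sexes 0 of 10 passed at P42 (0% of genes) and 0 of 10 at P90 (0.00416% of genes).

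The unadjusted differences in males ran upward at P42 and downward at P90. At P42 Adh5 had 52.9, 57.8 and 64.8 CPM (lowest, median, highest) in PAE-VEH males, against 44.9, 51.2 and 57.9 CPM in FCL-VEH males. All 9 exposed libraries were above the FCL-VEH median, and the difference was 0.19 ± 0.0516 (unadjusted p = 0.00103, adjusted p = 0.297, edgeR). Adhfe1, Aldh2 and Acss1 had differences of 0.22, 0.26 and 0.17, with adjusted p of 0.428, 0.466 and 0.54. At P90 Adh5 had 43.5, 53.7 and 54.8 CPM in PAE-AAE males, against 51.0, 58.8 and 80.4 CPM in FCL-VEH males. None of the 6 exposed libraries was above the FCL-VEH median, and the difference was -0.27 ± 0.102 (unadjusted p = 0.0154, adjusted p = 0.552). Adhfe1 and Aldh1a1 had differences of -0.29 and -0.69, with adjusted p of 0.563 and 0.57.

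The difference between those effects, P90 minus P42 in males, was tested in the fit of all 54 libraries, a comparison added after the data were seen. It sets PAE-AAE over FCL-VEH at P90 against PAE-VEH over FCL-VEH at P42. These are different exposures, so age and the adolescent alcohol cannot be told apart in it. It is called the male change in exposure effect below. None of the 10 members passed, beside 0.142% of 26079 genes. Adh5 came closest, at -0.45 ± 0.109 (95% interval -0.66 to -0.24, unadjusted p = 0.000127, adjusted p = 0.0517, edgeR). Each male library was then left out in turn, in 30 fits. The number of all genes called ran from 0 to 780 over these fits, against 37 with every library. Adh5 passed in 6 of the 30. These were without FCL-VEH P42 replicate 1 (adjusted p = 0.0298, edgeR), FCL-VEH P90 replicates 1 (0.0131), 2 (0.0131) and 3 (0.045), PAE-AAE replicate 6 (0.024) and PAE-VEH replicate 1 (0.049). Adhfe1 passed in 2 of the 30, without FCL-VEH P90 replicate 1 (0.0288) or 2 (0.0377). Aldh2 passed in 1 of the 30, without PAE-AAE replicate 6 (0.0354). In females the same difference was 0.06 for Adh5 (95% interval -0.18 to 0.30), and none of the 10 members and 0% of the 26079 genes passed, with 5.1% of genes at an unadjusted p under 0.05. In males 16.5% of genes had an unadjusted p under 0.05. Astrocyte markers moved in the same directions in males: 11 of 11 were higher in PAE-VEH at P42, with a median of 0.17, and 0 of 11 were higher in PAE-AAE at P90, with a median of -0.12. With astrocyte and myelin scores as covariates the Adh5 difference was -0.30 ± 0.111 and that of Adhfe1 -0.18 ± 0.124 (adjusted p = 1 for both).

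**Figure D4:**
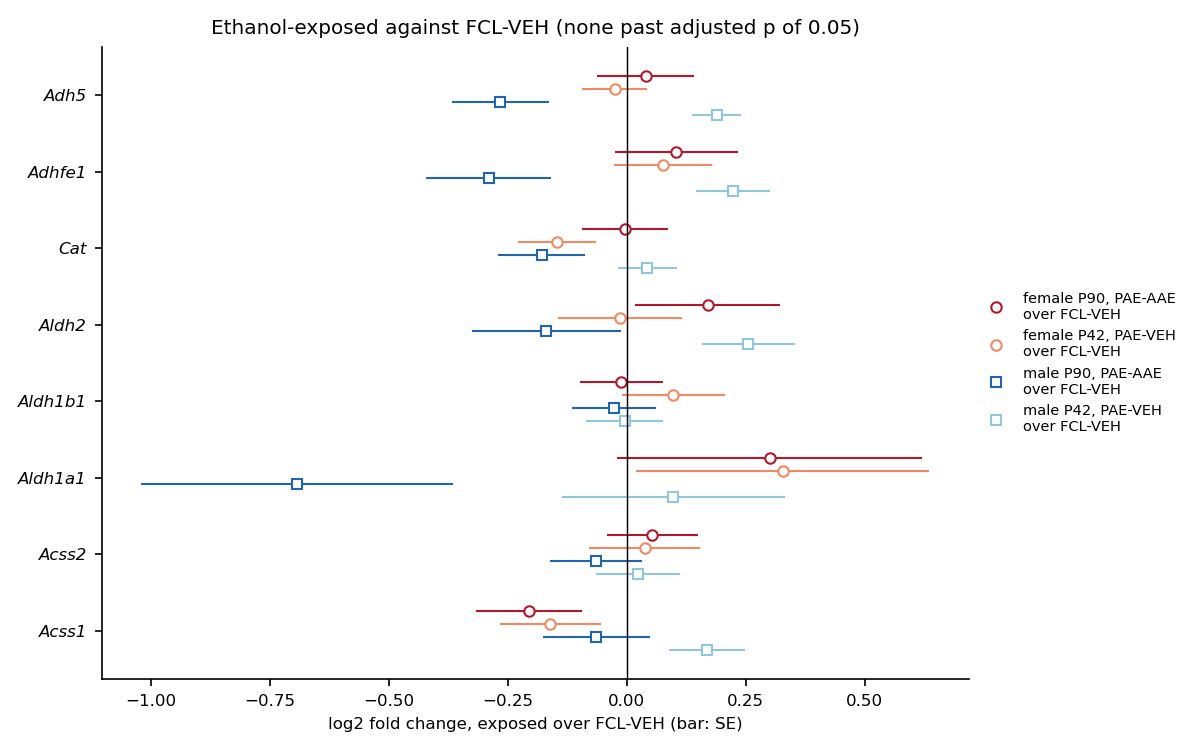
Log2 fold change of ethanol-exposed over FCL-VEH libraries for the 8 members with more than 1 CPM (points) with its SE (bars), by sex and age. No point passed the adjusted threshold. In males Adh5 stands at 0.19 at P42 and at -0.27 at P90, and Aldh1a1 at P90 has the widest bar of the male points.

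In females the exposure differences of the 8 members above 1 CPM lay between -0.16 for Acss1 and 0.33 for Aldh1a1 at P42, and between -0.21 for Acss1 and 0.30 for Aldh1a1 at P90. The smallest unadjusted p were 0.0835 for Cat at P42 and 0.0763 for Acss1 at P90. At P90 none of the 5 PAE-AAE females, at 55.1, 56.6, 56.9, 59.6 and 60.2 CPM, lay above the Acss1 median of the FCL-VEH females, whose lowest, median and highest were 54.3, 67 and 83.3 CPM. The adjusted p was 1 (edgeR).

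Effects of exposure were also compared between the sexes. At P42, 0 of 10 members passed for the female minus male difference (0% of genes), and 2 of 10 had an unadjusted p under 0.05, against 10.6% of genes: Acss1 at -0.33 (95% interval -0.59 to -0.07) and Adh5 at -0.21 (-0.38 to -0.05). At P90, 0 of 10 passed (0% of genes) and 3 of 10 had an unadjusted p under 0.05, against 10.6% of genes: Aldh1a1 at 0.99 (95% interval 0.10 to 1.89), Adhfe1 at 0.39 (0.03 to 0.76) and Adh5 at 0.31 (0.02 to 0.59). Between the sexes of FCL-VEH libraries 0 of 10 members passed at P42 (0% of genes) or at P90 (0.0499%). Unadjusted p under 0.05 were found there for Acss1 and Aldh1b1 at P42, with female minus male differences of 0.22 and -0.18, against 6.08% of genes, and for Aldh2 at P90, with -0.24, against 5.85%.

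Neighbouring genes of the pathway were read from 7 lists of 78 genes, which cover other alcohol and aldehyde dehydrogenases, aldo-keto and carbonyl reductases, microsomal partners of CYP2E1, peroxisomal and peroxide-removing enzymes, partners in formaldehyde and 2-hydroxyglutarate handling, and enzymes of acetate and acetyl-CoA. Of the 73 tested with age in FCL-VEH males, 4 rose and 0 fell, where 1.93% of all genes rose and 0.603% fell. The 4 were Aldh3b1, which oxidises fatty aldehydes (0.54), Aldh6a1, the methylmalonate semialdehyde dehydrogenase (0.36), Gpx4, which reduces lipid peroxides (0.45), and Acat1, the mitochondrial acetoacetyl-CoA thiolase (0.22). In FCL-VEH females 0 of 73 passed, with 16 higher and 2 lower at an unadjusted p under 0.05 (edgeR), where 9.18% of all genes were higher and 6.1% lower. Averaged over the sexes 10 rose and 1 fell, where 5.07% of all genes rose and 2.11% fell. Beside Aldh6a1 (0.28), Aldh3b1 (0.38), Gpx4 (0.36) and Acat1 (0.19), the rises took in Aldh1l1, a folate enzyme and astrocyte marker (0.35, adjusted p = 0.0168), and Aldh9a1, an aminoaldehyde dehydrogenase (0.21). They also took in Sod1, the cytosolic superoxide dismutase (0.34, adjusted p = 0.0187), Akr1a1, an aldehyde reductase (0.21), and Por, the electron donor of cytochromes P450 (0.16, adjusted p = 0.0382). The median over all 73 genes was 0.11 in FCL-VEH males, beside 0.00 over all genes.

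The gene that fell was Acat2, the cytosolic thiolase that takes acetyl-CoA toward sterols. It averaged 30.3 ± 5.41 CPM in FCL-VEH P90 libraries (SD, n = 14) and 37.4 ± 5.38 CPM in FCL-VEH P42 libraries (n = 16), and fell by 0.30 (adjusted p = 0.0294, edgeR). In exposed males it averaged 25.7 ± 3.81 CPM in PAE-AAE P90 libraries (n = 6) and 43.3 ± 9.32 CPM in PAE-VEH P42 libraries (n = 9), and it was the only one of the 73 to pass there, where 0.23% of all genes fell. It fell by 0.75 (adjusted p = 0.00433). In exposed females 3 of 73 rose, where 1.22% of all genes did, and 0 fell. Among them were Aldh5a1, the succinate semialdehyde dehydrogenase of GABA breakdown (0.28), and Sod1 (0.36). With exposure 0 of the 7 lists' genes passed at either age or in either sex.

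The genes whose levels ran most like each member differed by member. They were ranked by Pearson correlation of log2 CPM over 54 libraries among 14461 named genes of at least 1 CPM, and the values in brackets are those after group means were taken out. Acss2 ran most like Cyp51 at 0.945 (0.886), Hmgcs1 at 0.936 (0.861) and Dhcr7 at 0.921 (0.804), which encode enzymes of cholesterol synthesis. Acss1 ran like Srebf1, which encodes a transcription factor of lipid synthesis, at 0.748 (0.669), Lgi4 at 0.71 (0.556) and Slc27a1 at 0.702 (0.627). Adhfe1 ran like Aldoc at 0.936 (0.868), Ndrg2 at 0.91 (0.819) and Apoe at 0.905 (0.823), all of which are strongly expressed by astrocytes, and Aldoc is in the astrocyte list used above. The 10 genes most like Adhfe1 also held ribosomal protein genes, at 0.879 to 0.89, so the likeness was not confined to astrocyte genes. Aldh2 ran like Anxa5 at 0.862 (0.852), Yap1 at 0.859 (0.872) and Abhd14b at 0.847 (0.80).

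Adh5 ran like Atp5pd, a subunit of the mitochondrial ATP synthase, at 0.853 (0.817), Cnbp at 0.852 (0.843) and Rbm8a at 0.849 (0.816). Cat ran like Eps15 at 0.783 (0.768), Borcs7 at 0.783 (0.758) and Lamp1, a lysosomal membrane protein, at 0.781 (0.802). Aldh1a1 reached 0.759 with Epas1 (0.736), 0.748 with Hhatl (0.735) and 0.734 with Nfic (0.729). Aldh1b1 had the loosest matches, at 0.602 with Ankrd46 (0.576), 0.566 with Matr3 (0.575) and 0.562 with Tceal6 (0.572). Among the 8 members above 1 CPM, the highest correlation of a pair was 0.578, for Adhfe1 with Aldh1a1, and the lowest was -0.522, for Acss1 with Acss2. The samples behind these values share tissue pieces and depth, and the values carry no test.

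**Figure D5:**
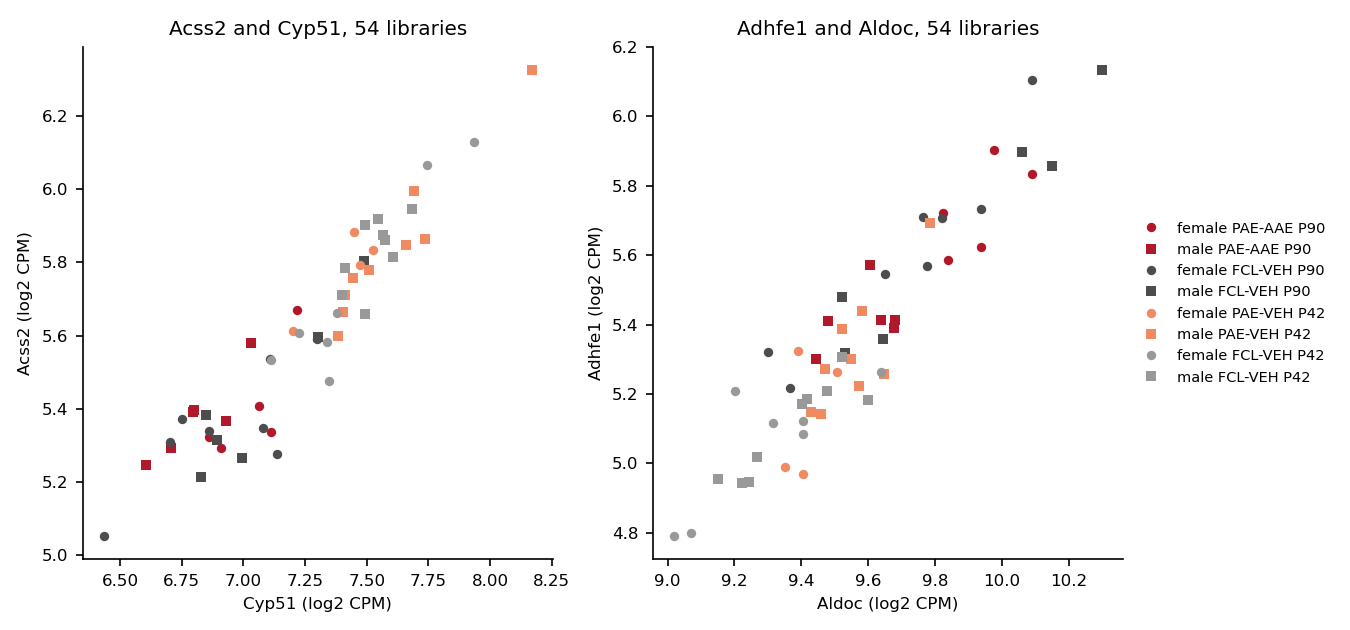
Log2 CPM of Acss2 against Cyp51 (left) and of Adhfe1 against Aldoc (right), 1 point per library, coloured by exposure and age, with circles for females and squares for males. The pairs correlate at 0.945 and 0.936 over 54 libraries, with P90 libraries mostly at the low end for Acss2 and the high end for Adhfe1.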

How the data were processed

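Raw read counts per gene were deposited by the authors in 1 table for the 54 libraries, with FPKM values, which the authors scaled by depth and transcript length, beside them. Per the labels' protocols, random hexamers primed the cDNA and strand was not kept. Where genes overlap on the 2 strands, their reads are therefore mixed. RNA integrity numbers were above 6.3 except for 1 of 5.8. Per the submitters' processing notes, fastp and HISAT2 2.0.5 were used, while the sources used here name no read counter or annotation. Of 46505 rows, 720 without a gene name (0.271% to 0.412% of a library's counts) were left out. Positions are those of the table, and 45780 gene IDs had the same start and end in GRCr8.

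Tests used edgeR 4.0.16 in R 4.3.3 on the counts: TMM scaling, the default filter on low counts by group, the two-sided quasi-likelihood F test, and Benjamini-Hochberg adjustment over all genes tested at 0.05. The 29 adolescent, 25 adult and 30 FCL-VEH libraries were each fitted with 4 group means. A fit of the 24 exposed libraries, a fit of all 54 for the difference between effects, and the mean over the sexes in FCL-VEH libraries were added after the data were seen. Intervals are 95% and come from the SE. A marker score is the mean over a list's genes of log2 CPM (prior count 2), centred per gene. Replicate numbers are in the order of deposition and only name libraries. Replicate pairs were checked for duplicates, and none differed by as little as sampling noise. Alternatives were DESeq2 1.42.0, voom with quality weights in limma 3.58.1, RLE scaling, no filter, all libraries in 1 fit, marker scores as covariates, and leaving out libraries. The scripts were tested on simulated data. Members, lists and the rule for named genes (every member, up to 4 per list, and the 3 genes most like each member) were chosen with earlier results of these data known. Counts carry no molecular identifiers, so depth covers counting error only. The values of 1 gene of the pathway lists are not reported here.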

Additional observations from a re-analysis of the deposited data

Results flagged for a closer look

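In 8 of 80 sets of values, a set being 1 member in 1 group, the highest or lowest library lay farther from its neighbour than Dixon's 95% critical value allows as a share of the group's range. Chance alone gives this in about 1 of 20 sets when sets are independent and values normally distributed. Neither holds here, since members share libraries and the values of Adh1c are skewed at few counts. The 8 of 80 therefore cannot be read against that rate. Of the 8, 4 were the same library, PAE-VEH P42 male replicate 6, whose fibroblast marker score of 3.82 and cortical marker score of 3.00 were the highest of its group. It was the highest of 9 for Acss2 (80.2 CPM, next 63.7, gap over range 0.519), Adhfe1 (51.7 CPM, next 43.4, gap over range 0.507), Aldh1a1 (17.3 CPM, next 8.88, gap over range 0.627) and Adh1c (3.71 CPM, next 0.819, gap over range 0.779). Without it the Adh1c difference of PAE-VEH against FCL-VEH males was -0.08 in place of 1.33 (log2), and neither value passed.

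In PAE-AAE P90 females, replicate 3 was the highest for Acss2 (50.9 CPM, next 42.5, gap over range 0.718) and the lowest for Aldh1b1 (17.3 CPM, next 19.97, gap over range 0.748). Replicate 4 of that group was the highest for Adh1c (0.810 CPM, next 0.253, gap over range 0.877). Replicate 2 of PAE-AAE P90 males was the highest for Adh1c (1.17 CPM, next 0.267, gap over range 0.812). Adh1c ran with the fibroblast score over the 54 libraries (Pearson correlation 0.728, and 0.76 within groups). The part of other cell types in these values was not tested.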

How the results depend on the processing

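No paired analysis was possible because replicate numbers follow the order of deposition and no label pairs the libraries. RLE scaling moved none of 170 member differences across the threshold. Counts of members that changed were, in FCL-VEH females with age (1), 2 with DESeq2, 2 with all 54 libraries in 1 fit and 0 without the libraries against their sex label, and with neighbouring scores the 1 was Acss2 in place of Adhfe1. FCL-VEH males (3) gave 4 in 1 fit, with Adh5 added, and 2 with neighbouring scores, with no filter or without those libraries, and both sexes (4) gave 5 in 1 fit. With astrocyte and myelin scores, FCL-VEH males gave 1, both sexes 2, exposed females 0 (1) and exposed males 0 (1). Exposed females gave 2 with DESeq2, voom or neighbouring tissue scores. The male change in exposure effect (0) gave 2 with DESeq2, which were Adh5 (adjusted p = 0.016) and Adhfe1 (0.0384), and 1 with voom. Aldh2 over both sexes with age was -0.0064 with astrocyte and myelin scores, against 0.27 without them, the only called value to change sign. The cause of these changes was not tested.

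Shares of all genes called moved more. With age in FCL-VEH males (2.53%) they were 4.85% with DESeq2, 3.6% in 1 fit, 0.453% with astrocyte and myelin scores, 0.465% with neighbouring scores, 0.925% with no filter, 1.67% with voom and 1.35% without the libraries against their label. FCL-VEH females (0.42%) gave 1.45% with DESeq2, 0.683% in 1 fit, 0.731% with astrocyte and myelin scores, 0.154% with no filter, 1.03% with voom and 0.18% without those libraries. Both sexes (7.18%) gave 0.756% with astrocyte and myelin scores, 2.78% with neighbouring scores and 4.6% without those libraries. Exposed males (0.284%) gave 0.949% with DESeq2, 0.662% with astrocyte and myelin scores, 0.608% with neighbouring scores and 0.92% with voom. Exposed females (2.17%) gave 4.9% with DESeq2, 0.464% in 1 fit, 0.164% with astrocyte and myelin scores, 0.813% with no filter and 7.38% with voom. Both exposed sexes (1.16%) gave 2.49% with DESeq2, 1.75% with neighbouring scores and 3.26% with voom. With no filter the shares were also 3.06% over both FCL-VEH sexes, 0.158% in exposed males and 0.547% over both exposed sexes, where more genes were tested. The male change in exposure effect (37 genes) gave 508 with DESeq2, 261 with voom, 9 with RLE, 0 with astrocyte and myelin scores, and 1 with neighbouring scores, with no filter or without those libraries.

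For exposure at P42, DESeq2 called 24 genes in males, 86 in females, 21 over both and 72 for the difference between the sexes (each 0). Voom called 1, 36 and, for the difference, 81, and the difference gave 2 with neighbouring scores and 1 without those libraries. At P90 DESeq2 called 2 in males, 8 in females and 5 over both. Voom called 1 in each sex, females gave 1 with neighbouring scores, and both sexes (1) gave 0 in 1 fit or with astrocyte and myelin scores. For sex at P42 (0) there were 7 with DESeq2, 7 with voom, 4 in 1 fit and 13 without those libraries, and at P90 (12) there were 4 with astrocyte and myelin scores, 7 with neighbouring scores and 0 with voom.

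With 1 library left out at a time, members called ran from 2 to 4 in FCL-VEH males, 0 to 1 in females and 4 to 5 over both, from 0 to 1 in exposed males, 1 to 2 in exposed females, and 0 to 2 for the male change in exposure effect. Shares of genes called ran from 0.435% to 4.94% in FCL-VEH males, 0.25% to 1.21% in females and 3.79% to 10.7% over both, and from 0.169% to 0.479% in exposed males, 0.296% to 1.93% in exposed females and 0.548% to 2.32% over both. Numbers of genes called ran from 0 to 780 for the male change in exposure effect, 0 to 7 for the P42 sex difference, 0 to 1 in P90 females, 0 to 3 over both sexes at P90, 0 to 11 for sex at P42 and 6 to 12 for sex at P90. Adh1c and Cyp2e1 were limited by depth.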
